A study of Mus musculus with 6 samples.

Results

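The genes described here mark the cells that line the brain ventricles, the tanycytes and the ciliated ependymal cells. They were taken from a list of 31 gene symbols, 24 of them genes of motile cilia and 7 of them tanycyte, immature ependymal or secreted-protein genes. Of the 31 genes, 28 were named by at least 1 probeset and all 28 passed the filter on low signal, out of 16663 genes tested in the series. Spag17 (a protein of the ciliary central pair), Enkur (a protein bound to ciliary microtubules) and Mlf1 (a gene enriched in ciliated cells) were named by no single-gene probeset and have no value. Where several probesets named a gene, the 1 with the highest mean signal over the 6 arrays stood for it.

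Pooled RNA of the hypothalamus was measured on Affymetrix Mouse Gene 1.0 ST arrays, and the mice were C57Bl/6J females aged 21 weeks. In the CGP group (3 arrays) the mothers had received CGP 39551, an antagonist of the N-methyl-D-aspartate receptor (NMDAR), at 5 mg/Kg by mouth during pregnancy and up to the end of weaning, and in the control (CON) group (3 arrays) they had not. Each group stood for 18 pooled mice. Whether its 3 arrays share a single pool is not stated in the labels. The p-values and intervals here therefore measure array-to-array spread, which may be technical, and not the spread between mice. The comparison asks whether blocking the receptor during development altered hypothalamic gene expression in the adult offspring. A label on treatment names the adrenal gland as the tissue taken, while the title, source and extraction labels name the hypothalamus. On these arrays 18 hypothalamic neuron markers had mean log2 signals of 7.20 to 12.86. The 7 adrenal markers had mean log2 signals of 6.06 to 7.13, against a filter at 6. Of the genes described, Rax, Nes, Mia, Spag16, Pifo, Dnah5, Dnah6, Dnah11 and Zmynd10 had mean signals inside that adrenal range. Their low signal limits what their changes can show.

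Tanycytes are elongated radial cells in the floor and lower walls of the third ventricle. They send a process into the hypothalamic tissue, carry hormones and nutrients between blood, cerebrospinal fluid and neurons, and are known as a source of new cells in the hypothalamus. The rest of the ventricular wall is covered by multiciliated ependymal cells, whose beating cilia move the cerebrospinal fluid. A motile cilium is built on a ring of microtubule doublets around a central pair. Dynein arms on the doublets make the force, and radial spokes and the central pair control the beat. Both cell types are a small fraction of the hypothalamus, and in bulk samples fewer cells of a type and less RNA per cell cannot be told apart.

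A gene is said here to rise or fall at a limma adjusted p under 0.05, and none of the 28 genes did so in CGP relative to CON. This does not show that they were unchanged. In limma with Benjamini-Hochberg adjustment over 18239 probesets, 0 genes passed an adjusted p of 0.05 in either direction, and their adjusted p-values ran from 0.34 to 0.98. Over all probesets 0.154% passed as higher and 0.126% as lower, and a count of 0 among 28 is near these shares. At an unadjusted p under 0.05, Tmem212 lay higher (3.57% of the list, against 5.25% of all probesets), and Cd24a, Vim, Tekt4, Rsph4a and Ccdc40 lay lower (17.9% of the list, against 5.83% of all probesets). The CGP arrays lay wholly above the CON arrays for 2 of the 28 genes (7.14%, against 7.59% of all probesets) and wholly below them for 6 of the 28 (21.4%, against 9.95%). These shares describe the list and were not tested.

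Changes are given as CGP minus CON on the log2 scale. They ran from -0.18 for Cd24a to 0.12 for Tmem212, 12 above 0 and 16 below (57.1% below, against 52.1% of all probesets). Their median was -0.0086, against -0.0031 over all probesets tested. The median size of a change, sign aside, was 0.051 in the list and 0.045 over all probesets. The spread between arrays of a group had a median SD of 0.069 in the list and 0.057 over all probesets. The 95% limma intervals, which are per gene and not adjusted for the number of genes, lay within 1.2-fold either way for 25 of the 28 genes. They rest on the spread between arrays and do not bound a difference between mice. The farthest interval bound was a log2 difference of -0.35 (1.27-fold), for Cd24a, and among the cilia genes it was -0.32 (1.25-fold), for Rsph4a. The median width of an interval was 0.24 in the list and 0.21 over all probesets.

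**Figure D1:**
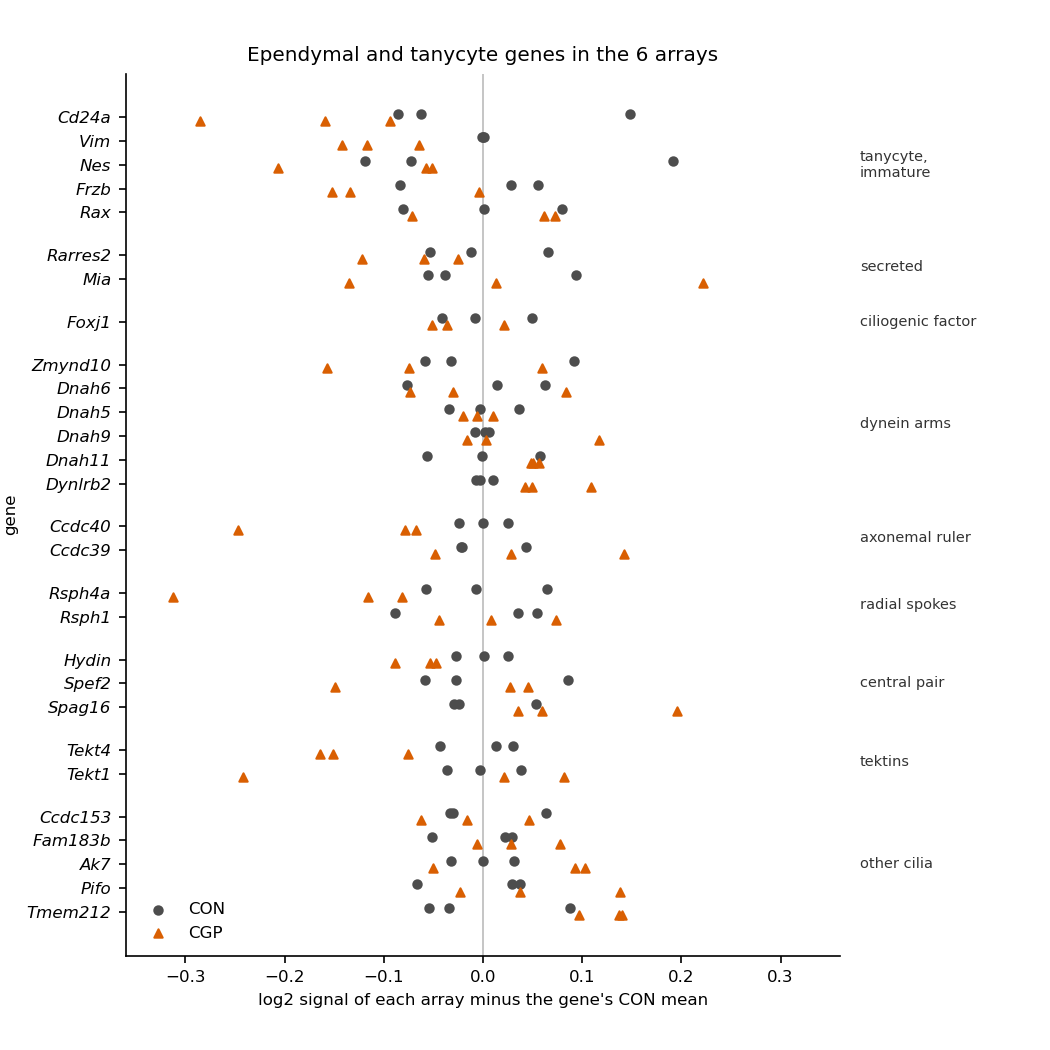
Log2 signal of each array minus the gene's CON mean (horizontal axis) for the 28 genes measured, grouped by role, with circles for the 3 CON arrays and triangles for the 3 CGP arrays. The triangles lie wholly to the left of the circles for Cd24a, Vim, Ccdc40, Rsph4a, Hydin and Tekt4 and wholly to the right for Dynlrb2 and Tmem212, and the groups overlap for the other 20 genes.

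Among the 5 tanycyte and immature ependymal genes, 4 had changes below 0 and 1 had a change above 0, with a median of -0.11 and none past the threshold. Rax, a homeobox transcription factor that defines tanycytes in the adult hypothalamus, had log2 signals of 6.93, 7.01 and 7.09 in CON replicates 1 to 3 and of 7.08, 6.94 and 7.07 in CGP replicates 1 to 3. The groups overlapped over most of their range, and the change was 0.02 (95% interval -0.11 to 0.15, limma adjusted p = 0.923). Vim encodes vimentin, the intermediate filament of tanycytes and ependymal cells, which astrocytes, vessels and meninges also make. Its log2 signals were 10.76, 10.76 and 10.76 in CON and 10.62, 10.70 and 10.65 in CGP. All 3 CGP arrays lay below a CON group with an SD of 0.0013, and the change was -0.11 (95% interval -0.19 to -0.025, limma adjusted p = 0.359). In 14 refits of the model with other settings Vim had changes of -0.13 to -0.091, and its lowest adjusted p, 0.106, came with trended and robust eBayes.

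Nes encodes nestin, the intermediate filament of neural progenitors and tanycytes, which is also made in growing vessels. Its log2 signals were 7.26, 6.995 and 6.95 in CON and 7.01, 7.02 and 6.86 in CGP. CON replicate 1 stood above the other 5 arrays, the change was -0.11 (SE 0.084, limma adjusted p = 0.676), and without that array it was -0.0095. Cd24a encodes a small anchored surface glycoprotein of ependymal cells and immature neurons. Its log2 signals were 10.88, 11.09 and 10.86 in CON and 10.85, 10.79 and 10.66 in CGP. The groups did not overlap, by a gap of 0.0075 between the highest CGP array and the lowest CON array, and the change was -0.18 (SE 0.073, limma adjusted p = 0.428). Without CON replicate 2, the highest array, the change was -0.11. Frzb, which encodes a secreted Wnt antagonist, had a change of -0.10 (95% interval -0.22 to 0.030) with overlapping groups.

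The secreted proteins had changes of opposite sign and no change past the threshold. Rarres2, which encodes the chemoattractant chemerin, had a mean log2 signal of 9.41 ± 0.06 in CON and 9.34 ± 0.05 in CGP (SD, n = 3) and a change of -0.07 (limma adjusted p = 0.616). Mia, a small secreted protein of cartilage and melanoma cells that is also used as an ependymal marker, had a mean log2 signal of 6.13 ± 0.08 in CON and 6.17 ± 0.18 in CGP. Its signal lay close to the filter and its SD in CGP was the widest of the list, with CGP replicate 2 the highest and CGP replicate 1 the lowest of the 6 arrays.

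Foxj1, the transcription factor that switches on the motile cilium programme, had log2 signals of 8.02, 8.06 and 8.11 in CON and of 8.03, 8.08 and 8.01 in CGP. The groups overlapped, with CON replicate 3 the highest and CGP replicate 3 the lowest array, and the change was -0.02 (95% interval -0.12 to 0.071, limma adjusted p = 0.880). Foxj1 works together with factors of the RFX family, which bind a DNA element made of a pair of inverted arms. The promoters of the cilia genes were therefore searched for these letters, in windows from 250 bases before to 50 bases after the gene start (RefSeq, GRCm38.p6), which were matched for 25 of the 31 genes.

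The RFX pair was written as GTTNCC, then 0 to 3 bases, then GGNAAC, which reads the same on both strands. It stood in the windows of 2 of the 25 genes (8%), Fam183b and Pifo, and in 0.936% of 27025 genes with a window. The shorter RFX core GTTGCC, on either strand, stood in 12 of the 25 genes (48%), against 14.1% of all genes and 14.3% of 17492 protein-coding genes. A pair can hold a core, and both genes with a pair are among the 12. All 12 were cilia genes (12 of 21, 57.1%), and 0 of 4 tanycyte, immature and secreted genes held the core. In the 62 further cilia genes with a window 28 held it (45.2%), and in 29 further tanycyte genes 3 did (10.3%). The forkhead letters GTAAACA, on either strand, stood in 2 of the 25 genes, Ak7 and Mlf1, and in 4.05% of all genes. A match is a description of the letters and not a bound site, and the shares were not tested.

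The windows around 9 matches are printed here so that the matched letters can be seen in their context. The matched letters are in capitals with up to 20 bases on either side, read 5′ to 3′ along the gene's own strand, and positions count from the gene start. Only the match named for a window is in capitals. The windows of Tekt1 and Mlf1 each hold a further core in small letters, at positions -35 and -105. The 2 genes with a pair come first, at positions -16 and -20, then a core in genes of the dynein light chain, the central pair, the tektins and the marker Ccdc153, and last the forkhead letters of Ak7 and Mlf1.
Fam183b, pair (chr11:58801944-58801996, minus strand): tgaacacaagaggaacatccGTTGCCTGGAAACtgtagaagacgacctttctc
Pifo, pair (chr3:106001484-106001537, minus strand): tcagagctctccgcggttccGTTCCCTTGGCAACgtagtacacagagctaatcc
Dynlrb2, core (chr8:116504944-116504989, plus strand): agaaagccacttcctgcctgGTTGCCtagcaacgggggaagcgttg
Hydin, core (chr8:110266944-110266989, plus strand): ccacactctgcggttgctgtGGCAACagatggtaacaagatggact
Tekt1, core (chr11:72361872-72361917, minus strand): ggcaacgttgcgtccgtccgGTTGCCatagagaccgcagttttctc
Tekt4, core (chr17:25471578-25471623, plus strand): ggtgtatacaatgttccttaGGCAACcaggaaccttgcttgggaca
Ccdc153, core (chr9:44240505-44240550, plus strand): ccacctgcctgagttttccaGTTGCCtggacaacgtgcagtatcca
Ak7, forkhead (chr12:105705831-105705877, plus strand): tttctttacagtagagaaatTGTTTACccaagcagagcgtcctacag
Mlf1, forkhead (chr3:67373961-67374007, plus strand): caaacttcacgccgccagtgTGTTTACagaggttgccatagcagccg

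**Figure D2:**
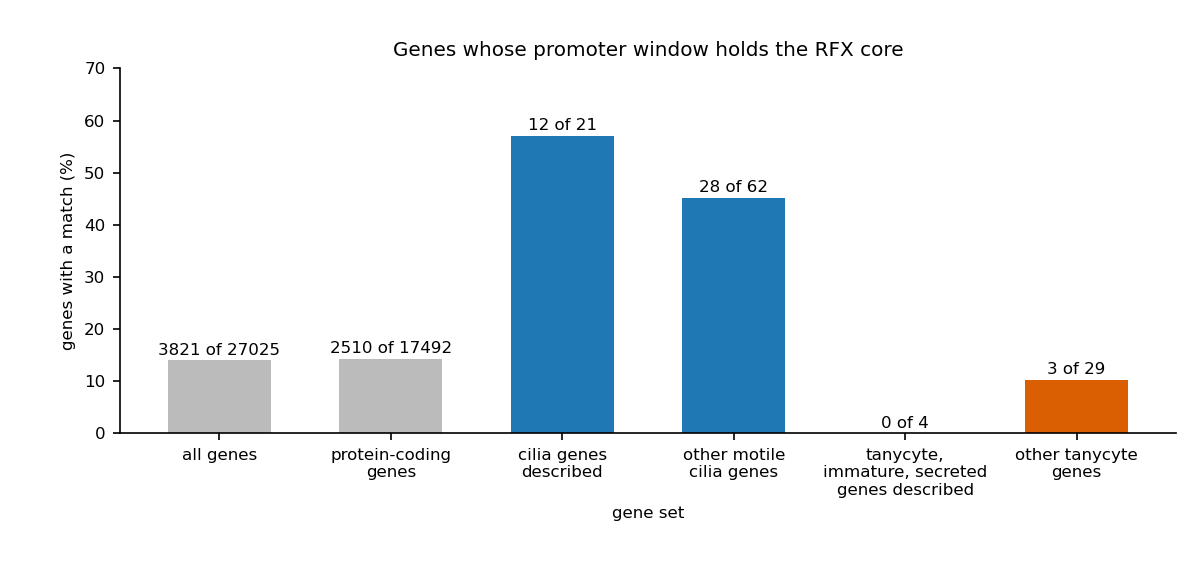
Percent of genes (vertical axis, from 0) whose 300-base promoter window held the RFX core on either strand, for all genes, protein-coding genes and the cilia and tanycyte gene sets, with the counts above the bars. The cilia genes described (12 of 21) and the other motile cilia genes (28 of 62) stand at 57.1% and 45.2%, against 14.1% of all genes.

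Genes with and without the core were measured on the same arrays, and their changes covered similar ranges. The 10 measured cilia genes with a core had a median change of -0.018, from -0.13 to 0.10, and the 8 measured cilia genes with a window but no core had a median change of 0.038, from -0.13 to 0.12. Fam183b and Pifo, the genes with a pair, had changes of 0.03 (95% interval -0.061 to 0.13) and 0.05 (95% interval -0.069 to 0.17).

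The genes of the dynein arms and their assembly divided evenly, 3 with changes above 0 and 3 below. Their median was 0.015 and their lowest limma adjusted p was 0.539. Dnah5, a heavy chain of the outer dynein arm, had log2 signals of 6.74, 6.78 and 6.71 in CON and of 6.73, 6.72 and 6.75 in CGP. The 6 arrays lay within 0.071 of each other, the narrowest range of the list, at a signal inside the range of the adrenal markers. The change was -0.0056 (95% interval -0.089 to 0.077). Dynlrb2, a dynein light chain of the roadblock type, had log2 signals of 7.51, 7.49 and 7.49 in CON and of 7.61, 7.54 and 7.55 in CGP. The CGP arrays lay wholly above the CON arrays by a gap of 0.032, and the change was 0.07 (95% interval -0.016 to 0.15, limma adjusted p = 0.539). The outer arm heavy chains Dnah9 and Dnah11 had changes of 0.03 and 0.05, the inner arm heavy chain Dnah6 had -0.0064, and Zmynd10, which is needed to assemble the arms in the cytoplasm, had -0.06. Leaving out 1 array moved the value for Zmynd10 between -0.12 (without CGP replicate 3) and -0.0072 (without CGP replicate 1). Dnah6 was read by 3 probesets, of which 1 had a change above 0 and 2 below, and none passed (lowest limma adjusted p = 0.689).

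The axonemal ruler proteins Ccdc39 and Ccdc40 act as partners that set the repeat along the doublets, and their genes had changes of opposite sign. Ccdc40 had log2 signals of 7.26, 7.31 and 7.29 in CON and of 7.04, 7.22 and 7.21 in CGP. All CGP arrays lay below all CON arrays, CGP replicate 1 the farthest, and the change was -0.13 (SE 0.053, limma adjusted p = 0.427). Without CGP replicate 1 it was -0.073. Ccdc39 had a change of 0.04 with overlapping groups, and there CGP replicate 1 was the highest array.

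The radial spoke head genes also parted. Rsph4a had log2 signals of 7.96, 8.08 and 8.01 in CON and of 7.90, 7.70 and 7.93 in CGP. All CGP arrays lay below all CON arrays by a gap of 0.024, CGP replicate 2 was the lowest, and the change was -0.17 (SE 0.065, limma adjusted p = 0.412). Without CGP replicate 2 it was -0.10. Rsph1, a partner in the same spoke head, had log2 signals of 7.32, 7.47 and 7.45 in CON and of 7.49, 7.42 and 7.37 in CGP. Its groups overlapped, with CGP replicate 1 the highest and CON replicate 1 the lowest array, and the change was 0.01 (95% interval -0.11 to 0.13, limma adjusted p = 0.952). The difference between the changes of these 2 genes was not tested.

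Of the central pair genes Hydin, Spag16 and Spef2 were measured. Hydin, whose loss causes hydrocephalus in mice, had log2 signals of 7.53, 7.56 and 7.59 in CON and of 7.51, 7.51 and 7.47 in CGP. The CGP arrays lay below the CON arrays by a gap of 0.020, with a spread of 0.024 (SD pooled over the groups), the narrowest of the list. The change was -0.06 (95% interval -0.14 to 0.018, limma adjusted p = 0.555). Spag16 had a change of 0.10 (95% interval -0.022 to 0.22) at a signal close to the filter, with mean log2 signals of 6.29 in CON and 6.38 in CGP. Spef2 was read by 8 tested probesets, 4 with changes above 0 and 4 below, from -0.06 to 0.15. None of them passed (lowest limma adjusted p = 0.606), the brightest had a change of -0.03, and 1 more probeset lay under the filter.

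The tektins are filament proteins inside the doublet wall. Tekt4 had log2 signals of 8.39, 8.34 and 8.41 in CON and of 8.30, 8.23 and 8.21 in CGP. The groups did not overlap, by a gap of 0.033, and the change was -0.13 (95% interval -0.22 to -0.036), with the lowest adjusted p of the list (limma, 0.340, and at the lowest 0.215 over the other settings). Tekt1 had log2 signals of 7.37, 7.40 and 7.44 in CON and of 7.16, 7.48 and 7.42 in CGP. CGP replicate 1 was the lowest array and CGP replicate 2 the highest, and the change of -0.05 (limma adjusted p = 0.869) was 0.05 without CGP replicate 1.

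Of the other cilia genes, 4 of the 5 measured had changes above 0, with a median of 0.05 and none past the threshold. Tmem212, a membrane protein used as an ependymal marker, had log2 signals of 8.57, 8.44 and 8.42 in CON and of 8.62, 8.62 and 8.58 in CGP. The CGP arrays lay above the CON arrays by a gap of 0.0088 to CON replicate 1, and the change was 0.12 (95% interval 0.018 to 0.23, limma adjusted p = 0.409). Ccdc153, also an ependymal marker, had log2 signals of 8.31, 8.31 and 8.41 in CON and of 8.28, 8.39 and 8.33 in CGP. Its groups overlapped, with CON replicate 3 the highest and CGP replicate 1 the lowest array, and the change was -0.01 (95% interval -0.11 to 0.093, limma adjusted p = 0.952). Ak7, an adenylate kinase of the ciliary shaft, Pifo, which acts at the ciliary base, and Fam183b had changes of 0.05, 0.05 and 0.03.

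**Figure D3:**
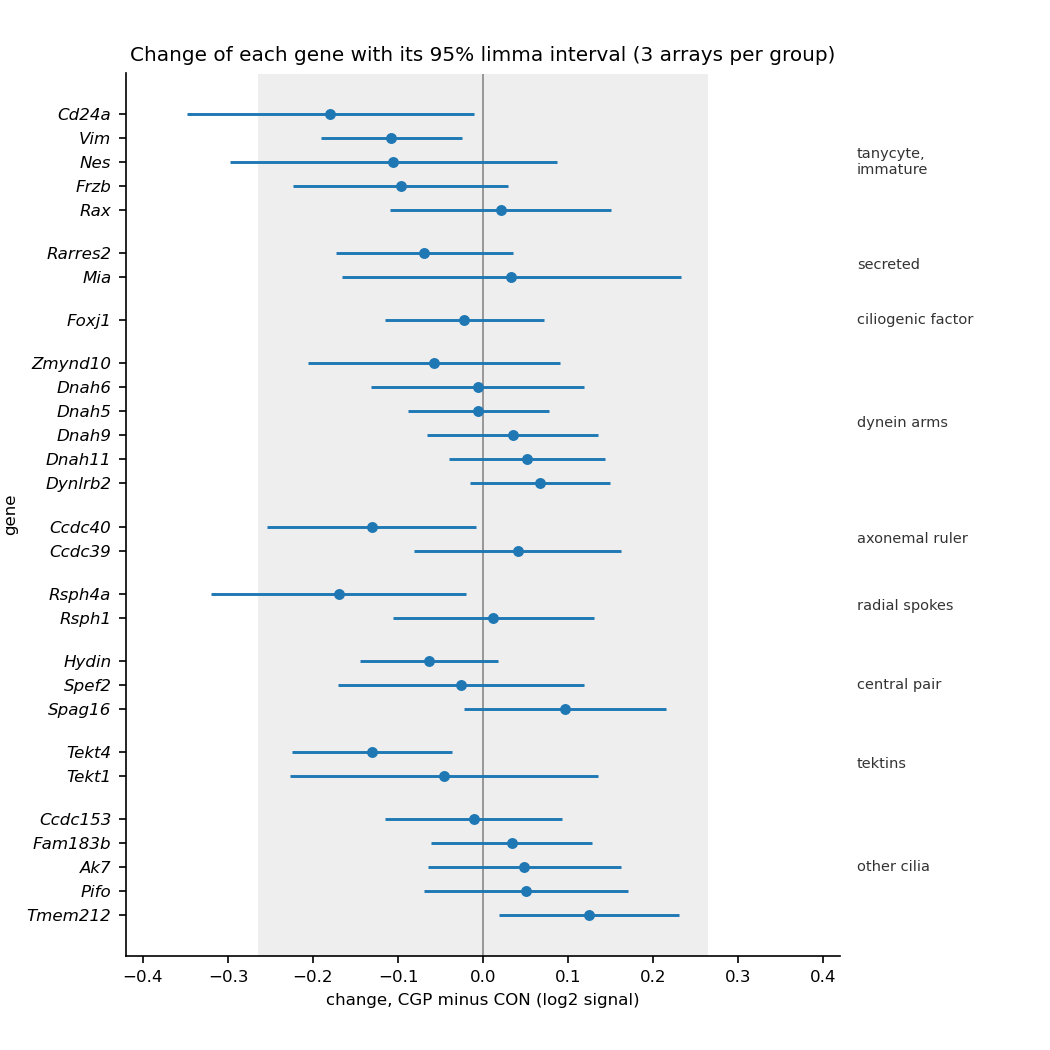
Change of each gene (CGP minus CON, log2 signal, horizontal axis) with its 95% limma interval, which is per gene and not adjusted for the number of genes, grouped by role, with the shaded band marking changes within 1.2-fold. The intervals of Cd24a, Vim, Ccdc40, Rsph4a and Tekt4 lie below 0 and that of Tmem212 above it, and those of Cd24a, Nes and Rsph4a reach past the band.

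The arrays did not order the genes the same way. CGP replicate 1 stood apart from the other 5 arrays on the second principal component (9.67, against -4.78 to 0.013, with 21.7% of the variance). It was the highest of the 6 arrays for 7 of the 28 genes (Dynlrb2, Fam183b, Ak7, Rsph1, Dnah9, Ccdc39 and Pifo) and the lowest for 7 others (Vim, Ccdc153, Mia, Ccdc40, Zmynd10, Spef2 and Tekt1). Without it, 12 genes had changes above 0 and 16 below, 0 passed, and the lowest limma adjusted p was 0.222, for Tekt4. CGP replicate 3 was the lowest array for 7 genes and the highest for 1. As a mean over the 21 cilia genes, each array deviated from the genes' own means by -0.015, 0.011 and 0.013 in CON and by -0.0055, -0.0030 and 0.0007 in CGP. Over the 7 tanycyte, immature and secreted genes the deviations were 0.070, 0.048 and -0.0095 in CON and -0.019, -0.018 and -0.071 in CGP. The cilia genes thus overlapped between the groups. The smaller set did not, by a narrow margin between CON replicate 3 at -0.0095 and CGP replicate 2 at -0.018. Of its 7 genes 2 lay wholly below CON in CGP (28.6%, against 9.95% of all probesets). The contrast between the 2 sets was not tested.

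A wider list of motile cilia genes gave 70 further genes with a test, and none of them passed, nor did any in the 14 refits. In limma 6 were higher (8.57%, against 5.25% of all probesets) and 1 was lower (1.43%, against 5.83%) at an unadjusted p under 0.05. Of the 70, 42 had changes above 0 and 28 below (40.0% below, against 52.1% of all probesets), and the median was 0.016. The farthest from 0 was Odf3b, an outer dense fiber gene, with log2 signals of 8.67, 8.55 and 8.58 in CON and of 8.71, 8.80 and 8.72 in CGP. The groups did not overlap, and the change was 0.14 (SE 0.045, limma adjusted p = 0.340). Rfx2 and Rfx3, known partners of Foxj1, had changes of 0.02 and -0.06, and Mcidas and Ccno, which act upstream in multiciliated cell formation, had changes of 0.07 and 0.05, none past the threshold.

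Of 34 further tanycyte genes tested, 1 fell and none rose. It was Stoml3, a stomatin-family membrane protein best known from the cilia of olfactory neurons and from touch-sensing neurons. Its log2 signals were 8.67, 8.64 and 8.62 in CON and 8.24, 8.36 and 8.25 in CGP. All CGP arrays lay below all CON arrays, by a gap of 0.26, and the change was -0.36 (SE 0.044, 1.29-fold, limma adjusted p = 0.0249). It passed in 7 of 14 refits, with adjusted p-values of 0.00064 to 0.143, and in the refits that left out an array it passed only without CGP replicate 2. Among the thyroid hormone and receptor genes used as tanycyte markers, Dio2 (the deiodinase that activates thyroid hormone) had a change of -0.07. Crym (a thyroid hormone binding protein) had -0.12 and Gpr50 (an orphan receptor) -0.13. Scn7a had a change of -0.11, while Col25a1 and Lhx2 had changes of 0.16 and 0.05. After Stoml3 the largest changes of the list were -0.26 for Cd59a and 0.21 for Necab2. Stoml3 aside, none of these genes passed. At an unadjusted p under 0.05 in limma, 3 of the 34 were higher (8.82%, against 5.25% of all probesets) and 8 lower (23.5%, against 5.83%). Crym, Gpr50, Scn7a and Cd59a were among the 8, and Col25a1 and Necab2 among the 3. The CGP arrays lay wholly above the CON arrays for 17.6% of the 34 (against 7.59% of all probesets) and wholly below for 26.5% (against 9.95%). The median change was -0.028. Of 10 astrocyte markers 4 were lower and 0 higher, so such a share was not particular to this list. These shares were not tested.

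**Figure D4:**
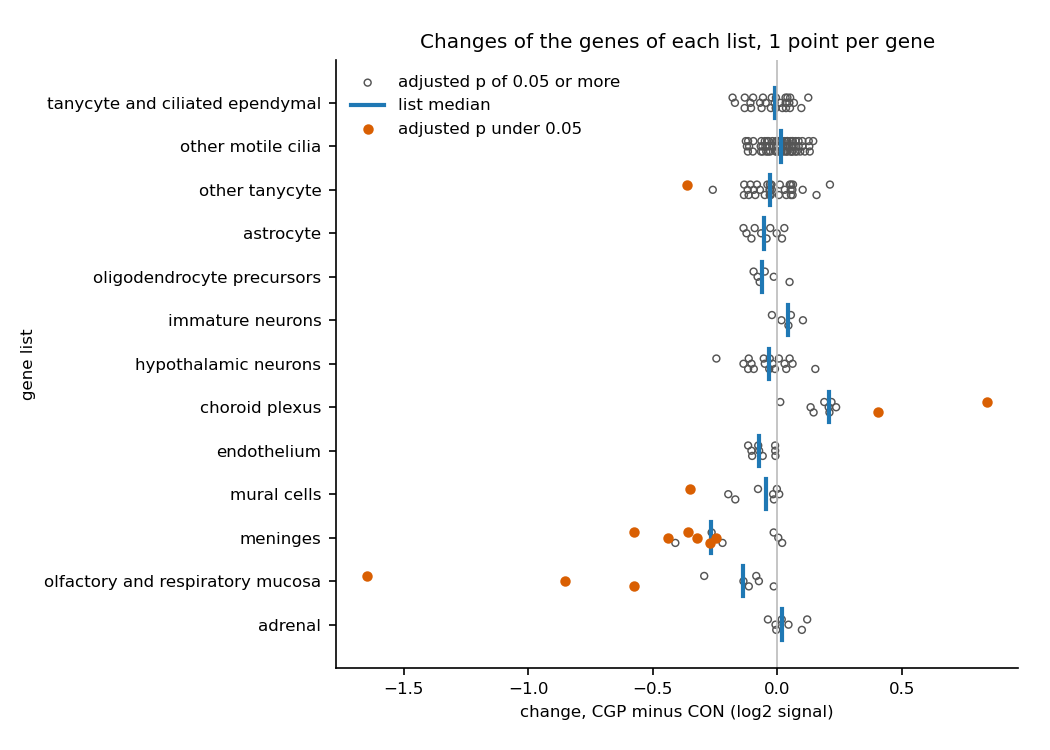
Change of every tested gene (CGP minus CON, log2 signal, horizontal axis) in the list described, the wider cilia and tanycyte lists and 10 lists of other cell types and tissues, with bars at the list medians and filled points for a limma adjusted p under 0.05. The tanycyte and ciliated ependymal genes lie between -0.18 and 0.12 with no filled point. Choroid plexus genes reach 0.84 and olfactory and respiratory mucosa genes reach -1.65. All lists were chosen with earlier results of these data known, and the contrast between lists was not tested.

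Markers of neighbouring tissues changed on the same arrays. Their lists were chosen with earlier results of these data known, so the counts describe the lists and not whole tissues. Over all probesets 0.154% passed as higher and 0.126% as lower. Of 10 choroid plexus genes 2 rose and none fell, Ttr (transthyretin) by 0.84 (limma adjusted p = 0.00029) and Slc4a5 (a bicarbonate transporter) by 0.40 (0.0249), all 10 had changes above 0, and the mean log2 signal of the list was 8.09 to 8.11 in CON and 8.34 to 8.39 in CGP. Of 12 meningeal genes 6 fell, among them Prg4 with a change of -0.57, Ogn with -0.44, Fmod with -0.36 and Slc6a20a with -0.32. Of the 12, 10 had changes below 0 and 2 above, and Col1a1, Col1a2 and Lum had changes of -0.01, 0.004 and 0.02. The list mean was 8.82 to 8.85 in CON and 8.54 to 8.60 in CGP. Of 9 olfactory and respiratory mucosa genes 3 fell, Scgb1c1 with a change of -1.65, Cyp2g1 with -0.85 and S100a5 with -0.58, and the list mean was 7.42 to 7.50 in CON and 7.03 to 7.06 in CGP. The mural cell gene Acta2 (smooth muscle actin) fell, with a change of -0.35, as 1 of 8, and that list mean was 8.17 to 8.20 in CON and 8.05 to 8.11 in CGP. In the refits Ttr passed in all 14, Prg4 in 11 of 14, Scgb1c1 in 12 and Cyp2g1 in 10 of 13, and the other named genes that passed in 5 to 7. Respiratory epithelium carries motile cilia, meninges and vessels make vimentin, and olfactory neurons express Stoml3. The part of these tissues in the values above was not tested. The list mean of the 21 cilia genes was 7.51 to 7.53 in CON and 7.52 on every CGP array.

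In the other cell types no marker passed. Astrocyte markers (10 genes, median change -0.054, list mean 10.85 to 10.86 in CON and 10.77 to 10.82 in CGP) were led by S100b with a change of -0.14 (limma adjusted p = 0.271). Endothelial markers (9 genes, median -0.073, all 9 with changes below 0) were led by Abcb1a with -0.12. Oligodendrocyte precursor markers (6 genes, median -0.060) were led by Pdgfra with -0.10, and immature neuron markers (5 genes, median 0.045), which stand beside Cd24a, by Dcx with 0.10. Hypothalamic neuron markers (18 genes, median -0.031) were led by Cartpt with -0.24 (limma adjusted p = 0.0696), and adrenal markers (7 genes, median 0.018) by Star with 0.12. At an unadjusted p under 0.05 in limma, where 5.25% of all probesets were higher and 5.83% lower, 4 of 10 astrocyte and 2 of 9 endothelial markers were lower. Of 18 hypothalamic neuron markers 1 was higher and 4 were lower, of 7 adrenal markers 1 was higher, and the precursor and immature neuron lists held 0. Over the 14 refits Cartpt passed in 3 and S100b in 1.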

How the data were processed

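The log2 values that the authors deposited were made, per the labels, with RMA and Partek, and were taken unchanged. The sources used here give no version of either. Of 28471 probesets, 18690 had 1 gene in the platform annotation, 1163 several and 8618 none, and of the 18690 gene identifiers 18620 matched RefSeq (GRCm38.p6). Probesets with 1 gene and a mean of at least 6 were tested (18239, with 451 left out). The CGP minus CON difference was fitted with limma 3.58.1 (R 4.3.3, lmFit and eBayes, no covariate), with Benjamini-Hochberg adjustment over all tested probesets. A gene rose or fell at an adjusted p under 0.05. The steps were tested on simulated data. Array medians lay between 8.19 and 8.21, correlations were 0.997 to 0.998 for arrays of the same group and 0.996 to 0.998 otherwise, and no arrays held the same values. Depth has no counterpart on arrays, and their number limits the precision. The labels name no batch. The members and lists were chosen with earlier results of these data known. Values in every array are given for members whose groups did not overlap and for Rax, Vim, Nes, Foxj1, Ccdc153, Dnah5, Hydin, Rsph1 and Tekt1, and of each other list up to 4 genes that passed, or the 1 with the largest change, were named, with values in every array for Odf3b and Stoml3. Rfx2, Rfx3, Mcidas, Ccno, Dio2, Crym, Gpr50, Scn7a, Col25a1 and Lhx2 are further genes, added for their role. Cd59a and Necab2 were added for the size of their changes. Promoter windows are from RefSeq. The alternatives were other signal filters, all probesets in the adjustment, median centring, trended and robust eBayes, array weights, a replicate block, each array left out in turn and the mean of a gene's probesets.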

Additional observations from a re-analysis of the deposited data

How the results depend on the processing

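None of the 28 genes passed in any of 14 refits of the limma model, and the lowest adjusted p was 0.106. In these refits 17 genes kept the sign of their change and 11 changed it at least once, none of the 11 with a change above 0.046 in size. Their median change, -0.0086, ran from -0.041 (without CGP replicate 2) to 0.0067 when 1 array was left out, and that of the further cilia genes from 0.0038 to 0.022. Of the further tanycyte genes 1 was lower, against 0 with all probesets in the adjustment, 3 lower and 1 higher with trended and robust eBayes, and 0 to 1 when 1 array was left out (0 without CON replicates 1, 2 or 3 and without CGP replicates 1 or 3). Over all probesets 28 were higher and 23 lower, against 113 and 136 with trended and robust eBayes, 2 and 2 with all probesets, 44 and 37 at a mean of at least 7, and 2 to 5 and 3 to 8 when 1 array was left out. No pairing by replicate number was found, since same-numbered arrays deviated together at r = 0.078, -0.18 and 0.11. With the replicate number as a block, 2 were higher and 4 lower over all probesets, 0 of the 28 genes passed, and 0 further tanycyte genes passed. Of 25 genes with a promoter window, 2 held the RFX pair and 12 the core. The causes were not tested. Mia, Spag16, Dnah5, Dnah11 and Pifo have no value at a mean of at least 7.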
